A study of Mus musculus with 6 samples.

Results

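The genes described here build the contractile apparatus of muscle, and they are read in Flk1-positive cells sorted from differentiating mouse embryonic stem (ES) cells with or without induction of Etv2. The 10 genes were chosen by symbol: 4 muscle actins (Acta1, Acta2, Actc1, Actg2), 3 actin-binding proteins (Tagln, Cnn1, Cnn2), 2 myosin light chains (Myl4, Myl7) and cardiac troponin T (Tnnt2). They are 10 of the 18193 genes on the array that carry a single symbol, and 15 of the 34945 probe sets fitted read them. Acta1 was picked because it was higher on every induced array, so its difference between the groups is described and not tested. All 15 probe sets are reported, since no filter on low values was applied.

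The cells came from the ES cell line ER71 A17C, made in a 129P2/Ola background, which carries the doxycycline-inducible Etv2 cassette (ER71 A2Lox.cre) in both groups. Cells were grown as embryoid bodies in hanging drops, the aggregates in which ES cells differentiate. In the induced group 0.5 microg/ml doxycycline was present for 12 hours from day 3 of differentiation, and the control group was untreated according to the series' design text, although the treatment field carries the doxycycline text for both groups. Flk1-positive cells of both groups were taken at day 3.5, with 3 arrays per group, and no label says whether the triplicates were separate cultures, so the errors and p-values cover the spread between these arrays. All arrays come from 1 ES line, and no doxycycline-treated line without the cassette was used here, so doxycycline and Etv2 cannot be told apart.

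Etv2 is an ETS-family transcription factor of the blood and endothelial lineages, and Flk1, the product of Kdr, marks the early mesoderm from which those lineages and the heart arise. Muscle actins polymerise into the thin filaments on which myosin pulls. Transgelin and the calponins bind those filaments, myosin light chains support the myosin head, and troponin T anchors the calcium switch of the sarcomere. Many of these genes are known targets of serum response factor (SRF), which binds the CArG box in their promoters together with myocardin-family or ETS-family partners. In the early embryo Actc1, Myl7, Myl4 and Tnnt2 are known as genes of the forming heart, and Acta2, Tagln and Cnn1 as genes of smooth muscle that are also transiently on in the heart.

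Promoters are shown for the actin picked for its rise, for 2 sister actins whose groups overlapped, and for the 2 genes that followed the Kdr level. The windows are the 250 bases before the annotated start, from RefSeq (GRCm38.p6), and all lie on the strand of the gene: Acta1 at chr8:123894776-123895025 (minus strand), Acta2 at chr19:34255374-34255623 (minus), Actc1 at chr2:114052876-114053125 (minus), Myl7 at chr11:5898783-5899032 (minus) and Cnn2 at chr10:79988350-79988599 (plus). Capitals mark the CArG box, searched in its strict form (CC, then 6 bases that are each A or T, then GG), which reads the same on both strands.
Acta1: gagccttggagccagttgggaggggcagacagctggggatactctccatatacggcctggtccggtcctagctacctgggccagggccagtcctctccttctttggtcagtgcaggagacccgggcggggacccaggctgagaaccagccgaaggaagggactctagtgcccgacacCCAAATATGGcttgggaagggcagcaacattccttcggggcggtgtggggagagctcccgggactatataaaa
Acta2: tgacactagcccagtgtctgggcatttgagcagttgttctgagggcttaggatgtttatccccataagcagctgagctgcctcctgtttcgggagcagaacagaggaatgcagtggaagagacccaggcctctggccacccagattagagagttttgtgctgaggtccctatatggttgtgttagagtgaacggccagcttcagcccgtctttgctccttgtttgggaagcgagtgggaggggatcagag
Actc1: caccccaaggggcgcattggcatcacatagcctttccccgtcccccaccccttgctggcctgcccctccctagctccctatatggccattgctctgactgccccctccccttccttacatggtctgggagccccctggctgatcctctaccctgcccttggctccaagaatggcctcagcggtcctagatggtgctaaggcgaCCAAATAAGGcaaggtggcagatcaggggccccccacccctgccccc
Myl7: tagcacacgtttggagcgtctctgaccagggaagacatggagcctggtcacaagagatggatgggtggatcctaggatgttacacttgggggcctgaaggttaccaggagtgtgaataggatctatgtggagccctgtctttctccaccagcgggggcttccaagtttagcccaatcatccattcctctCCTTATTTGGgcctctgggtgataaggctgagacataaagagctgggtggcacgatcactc
Cnn2: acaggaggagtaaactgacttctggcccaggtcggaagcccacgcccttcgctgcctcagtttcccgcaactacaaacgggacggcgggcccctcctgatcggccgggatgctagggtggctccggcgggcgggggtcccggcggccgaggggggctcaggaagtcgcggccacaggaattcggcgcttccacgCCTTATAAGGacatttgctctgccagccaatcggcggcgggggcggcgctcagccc

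A strict CArG box was found in Acta1, Actc1, Myl7 and Cnn2, with its first base 73, 47, 61 and 56 bases before the start. These are 4 of the 8 member genes with a window in the table, against 1.47% of all 32851 windows of the same length. The windows of Acta2, Cnn1, Myl4 and Tnnt2 held no strict match, which says only that these letters are absent from this stretch. Forms 1 base off the strict one were not searched or marked. Examples in the printed windows are ccctatatgg and ccttgtttgg in Acta2, ccatatacgg and ccttctttgg in Acta1, and ccctatatgg, ccttacatgg and ccaagaatgg in Actc1. These examples are not a full list. The ETS core GGAA, searched on both strands, was present in the windows of all 8 genes, as in 93.4% of all windows. The longer ETS form CCGGAA, whose letters include that core, was present in the window of 1 member gene, Myl4, and in 12.0% of all windows. The ETS core can share the outer GG or CC of a CArG box, and a match is a description of the sequence.

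All levels are log2 values per probe set made with RMA (robust multi-array average), on which a difference of 1 is a doubling. They compare arrays for 1 probe set and not 1 gene with another. No detection calls were used, so whether a low level lies above background was not tested. In sorted cell populations such as these, fewer cells of a type and less RNA per cell cannot be told apart.

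The induction and the sort were checked on the genes they rest on. Etv2 stood at 13.27, 13.28 and 13.36 on induced arrays 1, 2 and 3, and at 9.92, 8.59 and 10.71 on the controls. Kdr, the gene of the sorted protein, was uneven within each group, at 10.02, 8.40 and 10.97 in the controls and 9.56, 9.36 and 10.52 in the induced arrays. The arrays ran in Kdr from control 2 through induced 2, induced 1, control 1 and induced 3 to control 3, so this order mixes the groups. Within both groups number 2 was lowest, number 1 in the middle and number 3 highest. Induced 2 differed from the other arrays in its overall distribution, with a lower quartile of 6.06 against 5.96 to 6.003 and an upper quartile of 9.13 against 9.21 to 9.27. Over the whole array, limma called 1 of 34945 probe sets between the groups at a Benjamini-Hochberg adjusted p under 0.05, or 0.00286%. That probe set was Hprt, also 1 of the 5 genes most like Acta1 over the arrays. Etv2 itself, with a log2 difference of 3.56 ± 0.46 (SE), did not pass in that fit (limma's adjusted p = 0.837).

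Among the muscle actins the groups were separated only for Acta1, which was picked for that layout. Acta1, the skeletal muscle alpha-actin, was at 7.94, 8.18 and 7.98 in controls 1, 2 and 3 and at 8.53, 8.66 and 8.42 in the induced arrays. The lowest induced array lay above the highest control, which is the property it was picked for. The group means were 8.03 ± 0.13 (SD, n = 3) and 8.54 ± 0.12, a difference of 0.50 on the log2 scale or 1.42-fold. Between arrays with the same replicate number, the Acta1 difference was 0.59, 0.48 and 0.45 for numbers 1, 2 and 3.

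The cardiac alpha-actin Actc1, which is closely related to Acta1 in protein sequence, ran differently over the same arrays. It stood at 9.97, 9.51 and 10.12 in the controls and 9.97, 9.72 and 10.07 in the induced arrays. Control 2 was lowest and control 3 highest, so the groups overlapped fully. The log2 difference was 0.055 ± 0.17 (SE), with a 95% interval of -0.34 to 0.44 and limma's adjusted p at 0.9997.

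Acta2, the smooth muscle alpha-actin, was read by 3 probe sets. The one with the highest level, 1416454_s_at, was at 8.11, 7.99 and 8.13 in the controls and 8.12, 8.16 and 8.22 in the induced arrays. Same-numbered arrays differed upward in all 3 pairs, by 0.014, 0.17 and 0.084, but the groups overlapped, and the log2 difference was 0.090 ± 0.078 (SE; 95% interval -0.092 to 0.27; limma's adjusted p = 0.9997). The other two Acta2 probe sets lay between 4.74 and 5.29 on every array, and they differed in sign, with log2 differences of -0.11 ± 0.086 for 1444105_at and 0.032 ± 0.078 for 1456658_at. Actg2, the smooth muscle gamma-actin, lay between 5.35 and 5.50 on all 6 arrays, with a log2 difference of 0.046 ± 0.072.

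The coding sequences of the muscle actins are very similar, and probe sets can read more than their own gene. In Affymetrix naming, the ending _a_at marks probes shared by transcripts of 1 gene, _s_at probes shared by several transcripts that can be of different genes, and _x_at probes open to cross-hybridisation. The Acta1 and Actg2 probe sets end in _a_at and that Acta2 probe set in _s_at. How far the Acta1 probe set reads other actins was not tested.

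**Figure D1:**
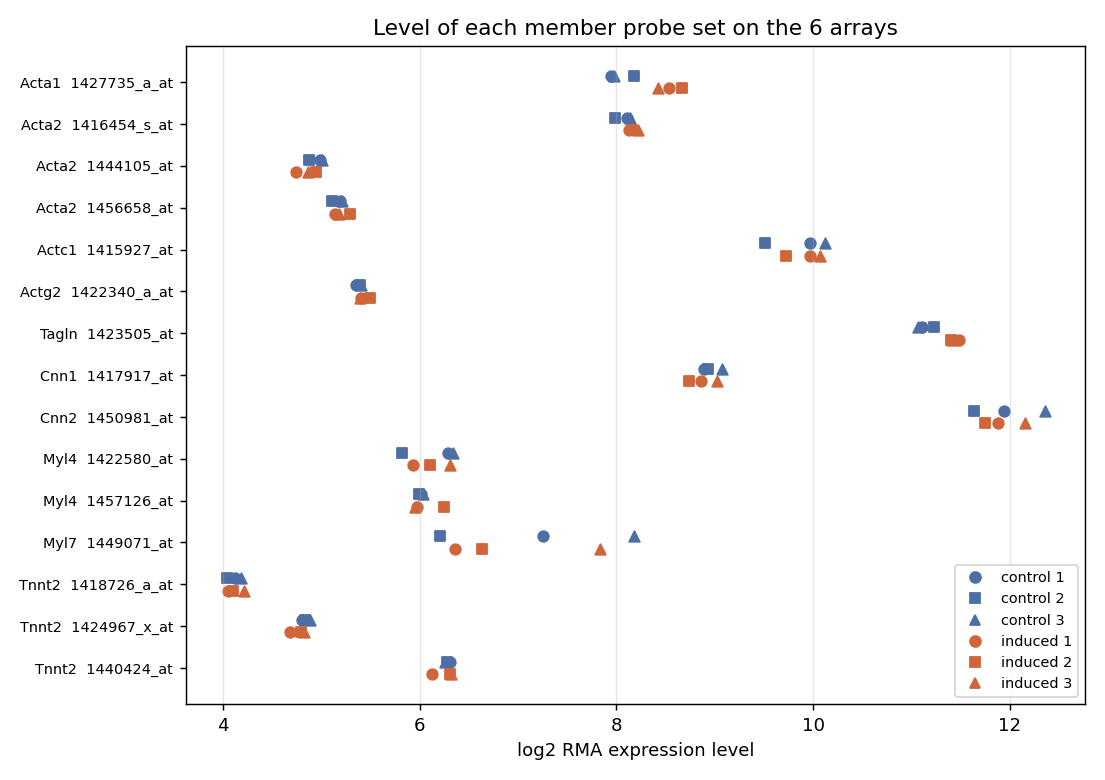
Log2 RMA level (horizontal axis) of the 15 member probe sets (vertical axis) on the 3 control arrays (blue) and the 3 induced arrays (orange), with the marker shape giving the replicate number. Only for Acta1 and Tagln do the 3 induced arrays lie wholly above the 3 controls, and Myl7 is the most widely spread; levels of different probe sets are not to be compared with each other.

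Among the actin-binding proteins, Tagln had the same layout as Acta1. Tagln encodes transgelin, an early marker of smooth muscle. It was at 11.11, 11.23 and 11.06 in controls 1, 2 and 3 and at 11.48, 11.41 and 11.41 in the induced arrays. All induced arrays lay above all controls, with means of 11.43 ± 0.042 (SD, n = 3) and 11.13 ± 0.086. On the log2 scale the difference came to 0.30 ± 0.079 (SE; 95% interval 0.11 to 0.48), that is 1.23-fold. Same-numbered arrays differed by 0.37, 0.18 and 0.35. Its unadjusted p was 0.0061, but after adjustment over all probe sets limma gave 0.9997, so the Tagln difference did not pass the threshold. An exact permutation test of 3 arrays against 3 cannot go below p = 0.1.

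Acta1 and Tagln were the 2 of 15 member probe sets whose induced arrays lay wholly above the controls, against 2.67% of all probe sets, and 0 lay wholly below, against 3.79% (6.46% in either direction). Nothing can be read from the count for Acta1, because this layout chose it. With the Kdr level of each array as a covariate, an alternative added after the data were seen, the Acta1 difference was 0.51 and that of Tagln 0.30 ± 0.077 (SE; limma's adjusted p = 0.996). Without induced 2, the array that stood apart, they were 0.44 and 0.31.

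The calponins, which bind actin and restrain myosin, did not share that layout. Cnn1, the smooth muscle calponin, was at 8.89, 8.93 and 9.07 in the controls and 8.86, 8.73 and 9.02 in the induced arrays. It was lower in the induced array of each number, by 0.032 to 0.19 on the log2 scale, and the groups still overlapped (log2 difference -0.090 ± 0.099, SE; limma's adjusted p = 0.9997). Cnn2, the calponin found widely outside muscle, was at 11.94, 11.63 and 12.35 in the controls and 11.87, 11.75 and 12.15 in the induced arrays. Its log2 difference between the groups was -0.052 ± 0.19 (SE), small beside a spread of 0.72 over the arrays.

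Among the myosin light chains, Myl7 varied most of all members, and it did so within the groups. Myl7 encodes the atrial regulatory light chain, which is on throughout the early heart tube. It was at 7.25, 6.20 and 8.18 in controls 1, 2 and 3 and at 6.36, 6.63 and 7.83 in the induced arrays. The 2 arrays numbered 3 were the highest, and the controls alone spanned the full range of 1.97, wider than that of 99.8% of all probe sets. The log2 difference between the groups was -0.27 ± 0.53 (SE; 95% interval -1.52 to 0.98; limma's adjusted p = 0.9997), and same-numbered arrays differed in both directions, by -0.89, 0.43 and -0.34. Leaving out 1 array moved the Myl7 difference from -0.77 (without control 2) to 0.21 (without control 3), so its sign rests on single arrays.

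Myl4, the atrial essential light chain, was read by 2 probe sets that did not run together. Probe set 1422580_at was at 6.29, 5.82 and 6.34 in the controls and 5.93, 6.11 and 6.31 in the induced arrays, with control 2 lowest. Probe set 1457126_at lay between 5.95 and 6.04 on the 5 arrays other than induced 2, where it reached 6.24. Their log2 differences were -0.036 ± 0.16 (SE) and 0.043 ± 0.097.

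Tnnt2, the troponin T of heart muscle, showed almost no spread on any of its 3 probe sets. Probe set 1418726_a_at lay between 4.04 and 4.22, 1424967_x_at between 4.68 and 4.88, and 1440424_at between 6.12 and 6.32 over all 6 arrays. Their log2 differences were 0.0058 ± 0.082 (SE), -0.070 ± 0.077 and -0.033 ± 0.082. Probe set 1424967_x_at was lower in the induced array of each number, by 0.036 to 0.12 on the log2 scale, while the other two went both ways. A probe set with this little spread can be one at background, which was not tested.

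Taking the 14 probe sets other than Acta1, 0 passed limma's adjusted threshold between the groups, in the fit by group and in the one with the replicate block. Over all probe sets 0.00286% passed in each of these fits, so a count of 0 among 14 says little about the members. Tagln was the 1 of these 14 with an unadjusted p under 0.05 in limma's fit by group, against 1.51% of all probe sets. Of all 15 probe sets 8 had a positive and 7 a negative log2 difference, with a median of 0.0058 beside 0.0023 over all probe sets.

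**Figure D2:**
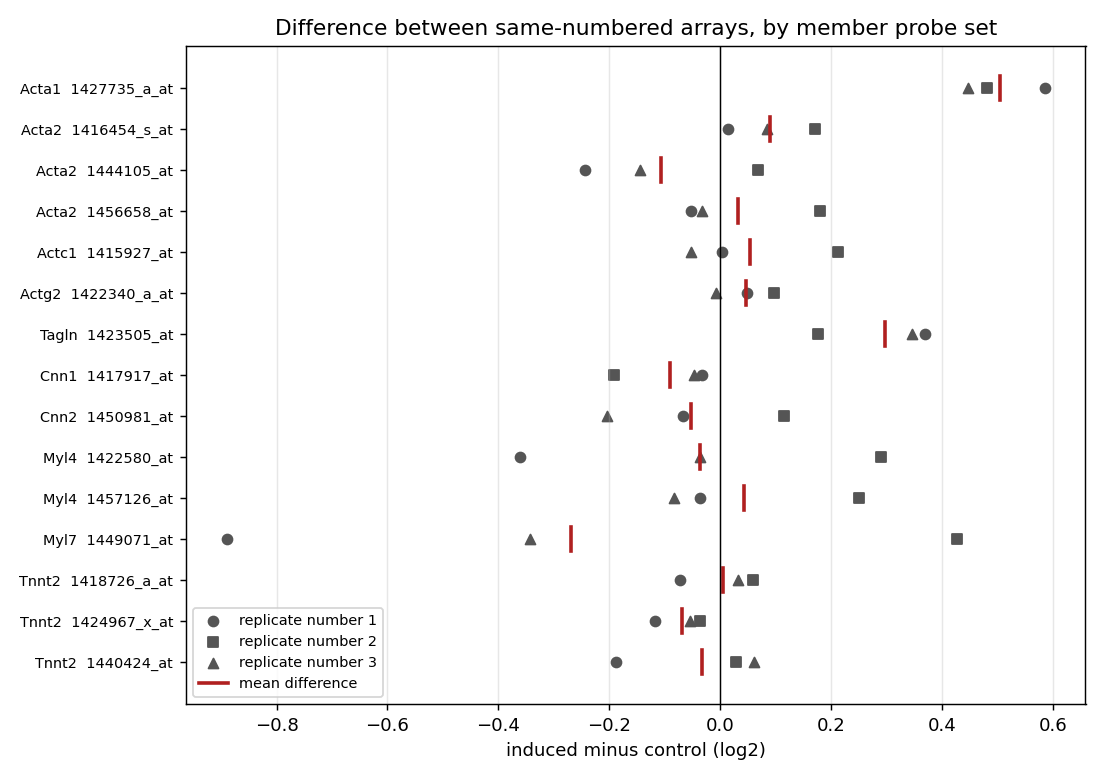
Log2 difference, induced minus control (horizontal axis), between arrays of the same replicate number (grey markers, 1 shape per number) for each member probe set, with the mean of the 3 as a red bar. All 3 differences are above 0 for Acta1 (0.45 to 0.59), Tagln (0.18 to 0.37) and Acta2 1416454_s_at (0.014 to 0.17) and below 0 for Cnn1 and Tnnt2 1424967_x_at, while those of Myl7 run from -0.89 to 0.43.

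The spread within the groups followed the Kdr level for some members. In a limma fit with the Kdr level of each array as a covariate beside the group, 2 of 15 member probe sets passed the adjusted threshold, both rising with Kdr, against 1.94% of all probe sets (0.873% rising and 1.07% falling). These were Myl7 and Cnn2. A slope is the log2 change in a gene per log2 unit of Kdr. Kdr ranked the replicate numbers alike in both groups (2 lowest, 1 in the middle, 3 highest), so the Kdr level and the replicate number moved together in this fit. With the replicate number as a block beside Kdr and the group, added after the data were seen and leaving 1 residual degree of freedom, 0 of 15 members and 0 of all probe sets passed in limma (6618 at an unadjusted p under 0.05). Under that block the slope was 0.74 ± 0.17 (SE; 95% interval 0.34 to 1.14; limma's adjusted p = 0.139) for Myl7 and 0.18 ± 0.11 (-0.080 to 0.43; 0.392) for Cnn2.

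Myl7 rose by 0.84 ± 0.10 (SE) per unit of Kdr, with a 95% interval of 0.59 to 1.08 and limma's adjusted p at 0.0107. Cnn2 rose by 0.28 ± 0.051 per unit (95% interval 0.16 to 0.40; limma's adjusted p = 0.0393). Its levels stood in the order of Kdr on all 6 arrays, from 11.63 on control 2 through 11.75, 11.87, 11.94 and 12.15 to 12.35 on control 3. Actc1 had a similar slope of 0.24 ± 0.052 (95% interval 0.12 to 0.36), which missed the threshold at an adjusted p of 0.0730 in limma and passed it at 0.0391 with 1 probe set per gene and at 0.0495 without the group term. Myl4 1422580_at had 0.22 ± 0.057 (limma's adjusted p = 0.126), and the other Myl4 probe set -0.021 ± 0.061.

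The members whose groups were separated had slopes below 0 that did not pass. The slope of Acta1 was -0.10 ± 0.051 (SE; 95% interval -0.22 to 0.014; limma's adjusted p = 0.475) and that of Tagln -0.058 ± 0.046 (95% interval -0.17 to 0.050; adjusted p = 0.773). The intervals of Acta1 and Tagln lay wholly below those of Myl7, Cnn2 and Actc1, and the difference between slopes was not tested. The smooth muscle genes Acta2 (1416454_s_at) and Cnn1 had slopes of 0.061 ± 0.045 and 0.080 ± 0.055, and Actg2, the other two Acta2 probe sets and the 3 of Tnnt2 had slopes between -0.011 and 0.069, with adjusted p from 0.688 to 0.995 in limma.

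Both calls were lost without control 2 and without control 3, while the slopes stayed positive. Without control 2, which had the lowest Kdr, the slopes were 1.11 for Myl7 and 0.37 for Cnn2, with limma's adjusted p at 0.275 and 0.600, and 0 probe sets passed on the whole array. Without control 3, which had the highest, they were 0.85 and 0.24, with adjusted p at 0.127 and 0.378. The Cnn2 call was also lost without control 1 (0.0786), induced 1 (0.0701) and induced 3 (0.115), at slopes from 0.27 to 0.29. With the mean of the early mesoderm list in place of Kdr neither passed: per log2 unit of that mean, which spans a narrower range, the slope was 1.68 for Myl7 (limma's adjusted p = 0.0608) and 0.56 for Cnn2 (0.125).

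Markers of early mesoderm and of pluripotency moved with Kdr over the same arrays. Of 13 measured early mesoderm genes 12 had a positive slope and 8 passed the adjusted threshold in limma, among them Tbx6 at 0.73, Aplnr at 0.60 and Mesp1 at 0.70, and their mean level ran from 10.08 on control 2 to 11.25 on control 3, with the induced arrays at 10.49 to 10.93. Of 7 factors of the heart field 5 had a positive slope, and Gata4 at 1.17 (adjusted p = 0.0010) and Hand2 at 0.51 (0.0109) passed. Pluripotency genes had a negative slope in 5 of 6, and 4 passed, among them Zfp42 at -0.62 and Nanog at -0.40, with a mean level from 11.53 on control 3 to 12.45 on control 2 and from 11.89 to 12.16 on the induced arrays. Among 4 mural markers Rgs5 passed, at 0.94 (adjusted p = 0.0104). Among the other SRF targets Tgfb1i1 at 0.47 and Ccn2 at -0.36 passed, and of 6 endothelial, 5 primitive erythroid and 5 visceral endoderm markers 0 passed. In the contractile lists 0 genes passed along Kdr, of 24 in the sarcomere, 14 in the smooth muscle, 14 in the non-muscle actin and myosin, 5 in the skeletal muscle and 11 in the SRF and cofactor list, with median slopes from -0.0027 to 0.031. Beside these list counts, 1.94% of all probe sets passed along Kdr (0.873% rising and 1.07% falling). A count of 0 in lists of this size lies near that share. The part of these cell types in the slopes of Myl7 and Cnn2 was not tested.

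**Figure D3:**
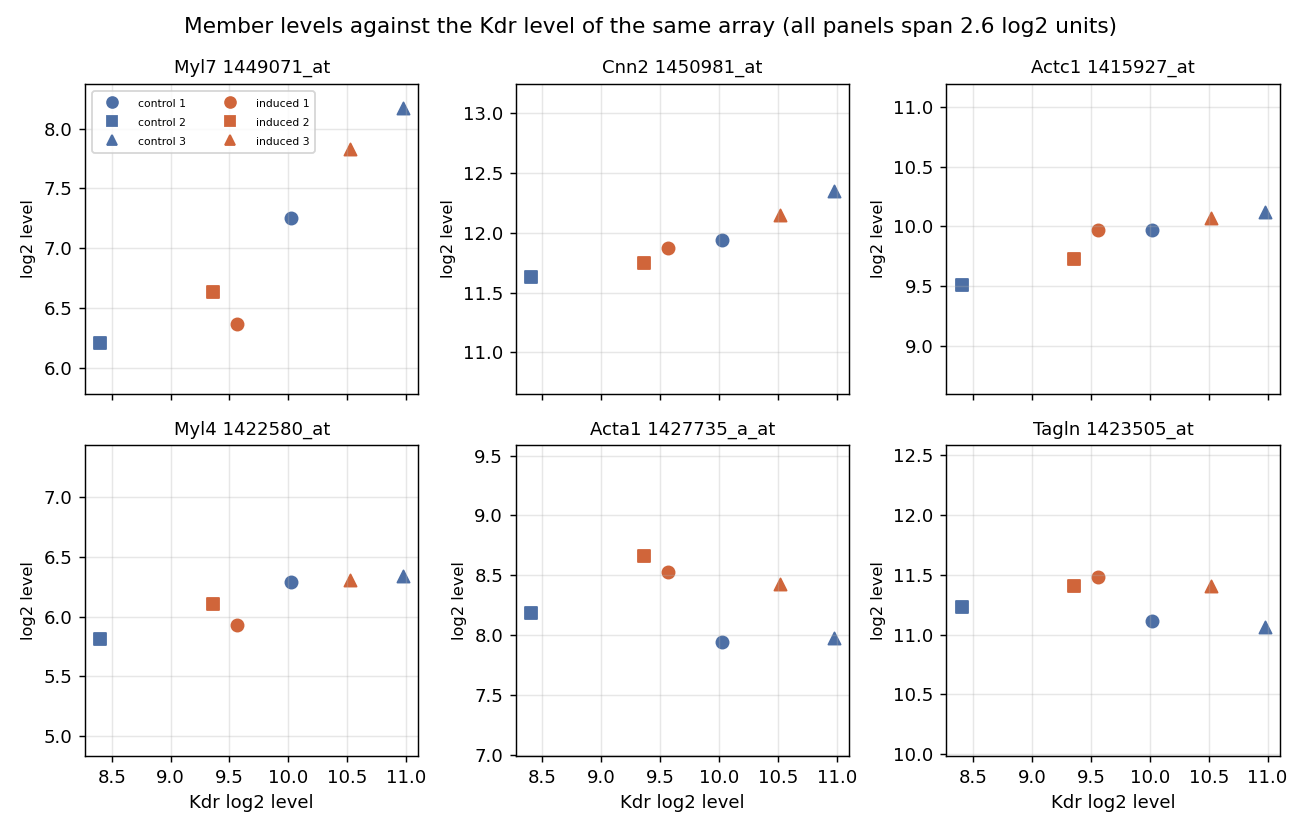
Log2 level of 6 member probe sets (vertical axes, each spanning the same number of log2 units) against the log2 Kdr level of the same array (horizontal axes), for control (blue) and induced (orange) arrays, with marker shape giving the replicate number. Myl7 and Cnn2 rise with Kdr by 0.84 and 0.28 per unit, Actc1 has a slope of 0.24 that missed the threshold, while the 3 induced arrays of Acta1 and of Tagln sit above the 3 controls.

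The genes most like Acta1 over the 6 arrays were named by Pearson correlation among the 423 other genes that spanned at least 1 log2 unit. They were Slc39a4, a zinc importer (r = 0.959), Cebpd, a C/EBP transcription factor (0.913), Ltb, which encodes lymphotoxin beta (0.892), Trim67 (0.879) and Hprt, an enzyme of purine salvage (0.869). All 5 were higher on each induced array than on the control of the same number, so this likeness carries the contrast Acta1 was picked on. The genes most like Myl7, the member with the widest range, were Cfc1, a Nodal co-receptor (0.988), Usp18 (0.983), Lef1, a Wnt effector (0.978), Gata4 (0.974) and Foxf1, a mesodermal forkhead factor (0.971). None of these 5 separated the groups, and each was lowest on control 2 and highest on control 3. These correlations over 6 arrays are given as descriptions.

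Related gene lists were read for the same comparison, with 1 probe set per gene. No gene of these lists passed limma's adjusted threshold between the groups, which 0.00286% of all probe sets passed. In the sarcomere list, which holds motor, thin filament, Z-disc and calcium-handling genes of striated muscle, 16 of 24 genes had a positive and 8 a negative log2 difference, with a median of 0.049. For each list without a called gene the 2 with the highest probe set levels are named, which is a rule for naming and no comparison of abundance. Here these were Atp2a2, the calcium pump of the sarcoplasmic reticulum, at 13.17 ± 0.17 in the control group and 13.11 ± 0.095 in the induced group (SD, n = 3), and Tcap, a Z-disc protein, at 8.32 ± 0.15 and 8.40 ± 0.17. The mean of the list was highest on induced 2, at 6.98 against 6.76 to 6.90 elsewhere, the array whose lower quartile was also highest. Without induced 2, an alternative added after the data were seen, 10 of the 24 genes were positive and the median was -0.0067.

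The smooth muscle list was positive in 9 of 14 genes, with a median of 0.056. Named by that rule are the actin crosslinkers Actn1, at 12.69 ± 0.16 in the control group and 12.75 ± 0.093 in the induced group (SD, n = 3), and Flna, at 12.13 ± 0.38 and 12.07 ± 0.18. The non-muscle actins had differences close to 0. Actb was at 14.52 ± 0.033 and 14.52 ± 0.030 and Actg1 at 14.46 ± 0.047 and 14.43 ± 0.011. Of that list 8 of 14 genes had a positive difference, with a median of 0.0052. Among markers of committed skeletal muscle, Myod1 was at 6.85 ± 0.074 and 6.94 ± 0.14 and Ckm at 7.66 ± 0.12 and 7.69 ± 0.090, and all 5 of that list had a positive difference, with a median of 0.11. All 5 lay below the median level of all probe sets, and their mean was highest on induced 2. Without induced 2 the median was 0.024 and 4 of the 5 were positive, with Myod1 at 0.021, Myog at 0.024 and Ckm at -0.027. Myf5 stood at 0.41 without that array and 0.31 with it, and Myf6 at 0.11 both ways.

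SRF and its partners were read because many of the members are their targets. Srf was at 10.80 ± 0.24 in the control group and 10.66 ± 0.16 in the induced group (SD, n = 3), and Mef2d, a MADS-box relative of SRF, at 10.22 ± 0.12 and 10.27 ± 0.115. Of 11 genes in that list 6 had a positive difference, with a median of 0.021. The groups did not overlap for 3 genes of the list, against 6.46% of all probe sets (2.67% higher and 3.79% lower in the induced arrays). The sarcomere, smooth muscle, non-muscle and other SRF target lists each held 1 such gene, higher in the induced arrays. The 3 genes here were singled out after their values were seen: Elk3 was higher in the induced arrays, and Mrtfa, a myocardin-family coactivator, and Elk1 were lower. Elk3, an ETS-family partner of SRF, was at 7.82, 7.94 and 7.25 in the controls and 8.65, 8.32 and 8.37 in the induced arrays. Its log2 difference of 0.78 ± 0.19 (SE) did not pass in limma (adjusted p = 0.9997). Mrtfa was at 8.88, 8.88 and 9.22 in the controls and 8.66, 8.87 and 8.85 in the induced arrays, a log2 difference of -0.20, and Elk1, an ETS-family partner like Elk3, differed by -0.12, neither passing (adjusted p = 0.9997 in limma). Other SRF targets were positive in 6 of 9 genes, with a median of 0.087, and named by level are the focal adhesion genes Vcl, at 12.10 ± 0.30 and 12.17 ± 0.22, and Zyx, at 10.74 ± 0.26 and 10.71 ± 0.17.

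**Figure D4:**
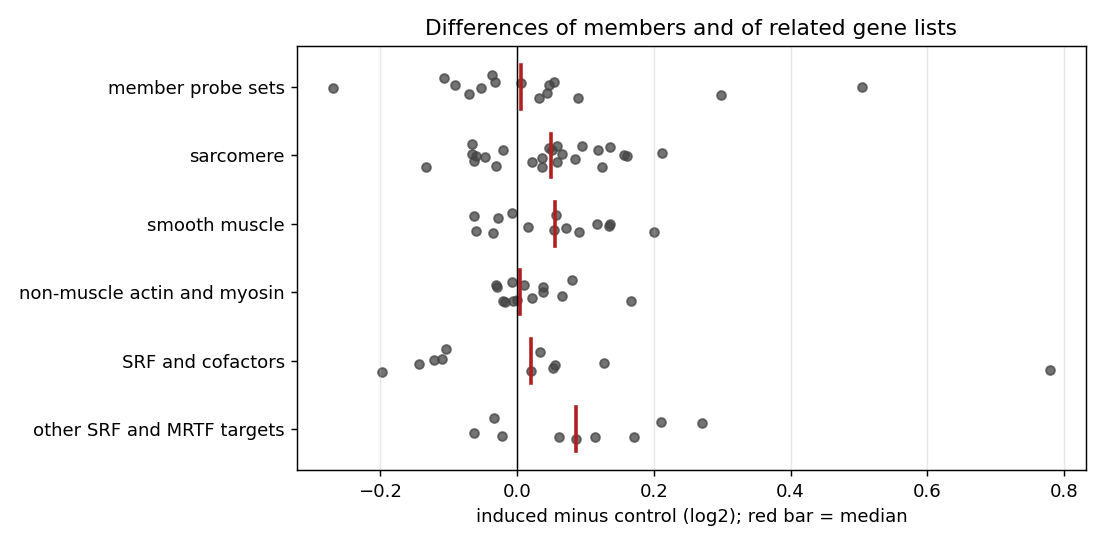
Log2 difference, induced minus control (horizontal axis), of the 15 member probe sets and of each gene in 5 related lists (rows; 1 dot per probe set or gene, shifted at random within a row), with the median as a red bar. The medians lie between 0.0052 and 0.087; the dots farthest to the right are Acta1 at 0.50 among the members and Elk3 at 0.78 among SRF and its cofactors.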

How the data were processed

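RNA of 6 samples was read on Affymetrix mouse arrays. The deposited log2 values per probe set were made by the authors with RMA, per the submitters' processing notes, and the sources used here give no version for it. RMA corrects background, quantile-normalizes arrays and summarises probes. Background correction and detection were not varied, as scanner files were not used here. Of 45101 probe sets, those with 1 symbol in GEO's platform annotation were kept, without 13 Affymetrix controls, leaving 34945.

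Groups come from the sample titles. Probe sets were fitted with limma 3.58.1 (R 4.3.3; lmFit, eBayes, two-sided, Benjamini-Hochberg adjustment, threshold 0.05), by group and with the Kdr level as a covariate. The fits were tested on simulated data. Precision is limited by having 3 arrays in each group. The main fits did not pair the arrays. Replicate numbers were taken as pairs only for the same-number differences and for the fits with a replicate block. Same-numbered arrays deviated together from their group means (r = 0.24, 0.18 and 0.27). Some unmatched arrays reached similar values, with control 2 and induced 1 at 0.22 and control 1 and induced 3 at 0.21. The other unmatched values were 0.043 (control 3, induced 2), -0.32 (control 1, induced 2), -0.37 (control 3, induced 1) and -0.42 (control 2, induced 3). These values do not settle whether the numbers mark pairs, and no label gives a shared culture or day. The replicate block, scaling, probe choice, filter, weights and left-out arrays were varied.

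The members and gene lists were chosen with earlier results of these data known. Named genes are the members, Etv2, Kdr, the 5 genes most like Acta1 and Myl7, and from each list up to 5 genes past the threshold or the 2 with the highest level; not every list is named in full. Promoters came from RefSeq (GRCm38.p6), where 8 of 10 members had an entry.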

Additional observations from a re-analysis of the deposited data

How the results depend on the processing

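With the replicate number as a block, 0 member probe sets, 1 of all probe sets and 0 list genes passed between the groups, as without it, so pairing changed no call between the groups. Across all 16 alternatives 0 members passed; over all probe sets 0 passed with arrays centred on the median and with both arrays of number 2 left out, and 2 (Hprt and Etv2) with Kdr as a covariate, against 1, and 0 to 1 with each array left out. The log2 difference of Acta1 ranged from 0.44 to 0.58 and that of Tagln from 0.26 to 0.36 over all alternatives.

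Differences of 8 member probe sets turned sign. With arrays centred, Tnnt2 1418726_a_at was at -0.012. With array weights Acta2 1456658_at was at -0.0069, Cnn2 at 0.039 and Myl4 1457126_at at -0.024. With both arrays of number 2 left out, Acta2 1456658_at was at -0.042, Actc1 at -0.024, Myl4 1457126_at at -0.060 and Tnnt2 1418726_a_at at -0.021. Leaving out each array gave ranges of -0.011 to 0.062 for Acta2 1456658_at, -0.12 to 0.18 for Actc1, -0.22 to 0.14 for Cnn2, -0.20 to 0.060 for Myl4 1422580_at, -0.051 to 0.095 for Myl4 1457126_at, -0.77 to 0.21 for Myl7, -0.041 to 0.040 for Tnnt2 1418726_a_at and -0.067 to 0.029 for Tnnt2 1440424_at.

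Along Kdr, 0 to 2 members and 0 to 1098 of all probe sets passed with each array left out, against 2 and 678. With the replicate block 0 members and 0 of all probe sets passed, and the slopes of Actg2 (0.055), Cnn1 (-0.11) and Myl4 1457126_at (0.22) turned. With the early mesoderm mean in place of Kdr 0 members passed, Myl7 at an adjusted p of 0.0608 and Cnn2 at 0.125 in limma. With both arrays of number 2 left out 1 member (Myl7) and 67 of all probe sets passed, Actg2 turned to 0.025 and Myl4 1457126_at to 0.0047. Leaving out each array turned the slopes of Acta2 1456658_at (-0.028 to 0.040), Tnnt2 1440424_at (-0.0096 to 0.040) and Myl4 1457126_at (-0.10 to 0.011). The causes were not tested. Depth does not apply to arrays, and signal over background was not available here for the low Tnnt2, Actg2 and Acta2 probe sets.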
